A study of Homo sapiens with 6 samples.

Results

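The TBXT promoter contacted the upstream introns of PDE10A in all 3 lung cancer cell lines, and the contacts ranged farthest and were most numerous in A549. TBXT encodes brachyury, a T-box transcription factor of the early mesoderm and notochord that most adult tissues do not express. PDE10A, its neighbor on chromosome 6, encodes a phosphodiesterase that hydrolyzes cAMP and cGMP and is most abundant in striatal neurons. Its 5′ end lay 181.1 kb and its 3′ end 841.9 kb from the viewpoint, the NlaIII site at the TBXT promoter from which 4C-seq contacts were read, and the gene spans 660.8 kb on the minus strand. The putative cis-regulatory elements (pCREs) described here were the distinct regions, matched on start and end, whose midpoint fell within the gene. They numbered 261 of the 1201 distinct pCREs of the 3 lists.

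The lists came from H460, derived from a large cell lung carcinoma and expressing TBXT, and from H358 and A549, adenocarcinoma lines without detectable TBXT. All were untreated cultures of human lung cancer lines, with the TBXT-expressing state represented by H460 alone, so that this state and the line cannot be told apart. A549 was grown in DMEM and the other lines in RPMI, so that line and medium cannot be told apart for A549. Each line had 2 replicate libraries, 6 in all, and 1 deposited list that required a call in both replicates. The line names are those of the deposited lists. One sentence of the study's text gives the sizes of the H358 and A549 lists in the opposite order, whereas its diagram of overlaps orders them as the lists do.

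In 4C-seq, chromatin is crosslinked, cut with NlaIII and ligated, so that a fragment lying near the viewpoint in the nucleus is joined to it and can be sequenced from it. A contact is therefore a frequency of proximity, not a measure of regulation. A pCRE in the lists ran from the middle of 1 NlaIII fragment to the middle of the next, and so enclosed a cutting site, CATG. Of the 261 pCREs, 255 held 1 such site and 6 held 2. Start and end positions are all that the lists give. Without read counts, the depth behind a call is unknown, no difference between lines could be tested, and a site that is not listed may have narrowly missed the threshold.

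The sequences below are from hg38 on the plus strand, with the NlaIII site CATG in capitals. They show a pCRE from 6 of the 7 combinations of lines and some of those at the ends of the contacted range, up to 300 bp in length. They also show the 3 shortest pCREs upstream of a lncRNA that was contacted in A549.
All 3 lines, nearest to the viewpoint (chr6:165908327-165908484): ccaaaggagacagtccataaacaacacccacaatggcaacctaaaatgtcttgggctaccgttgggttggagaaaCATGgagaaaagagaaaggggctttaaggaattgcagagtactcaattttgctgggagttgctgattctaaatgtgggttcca
All 3 lines, stretch with the most pCREs (chr6:165904894-165905187): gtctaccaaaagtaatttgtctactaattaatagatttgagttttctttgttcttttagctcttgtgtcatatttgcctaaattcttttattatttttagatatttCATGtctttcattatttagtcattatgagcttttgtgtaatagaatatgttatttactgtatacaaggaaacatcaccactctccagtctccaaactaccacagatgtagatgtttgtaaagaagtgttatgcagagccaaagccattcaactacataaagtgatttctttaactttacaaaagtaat
H460 and H358, nearest of H358 (chr6:165959693-165959983): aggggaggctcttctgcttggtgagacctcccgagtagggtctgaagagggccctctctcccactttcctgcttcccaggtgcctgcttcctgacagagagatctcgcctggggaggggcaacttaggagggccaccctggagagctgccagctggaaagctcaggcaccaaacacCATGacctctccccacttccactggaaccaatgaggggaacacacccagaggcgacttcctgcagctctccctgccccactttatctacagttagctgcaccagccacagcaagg
H460 only, farthest of H460 (chr6:165807912-165808200): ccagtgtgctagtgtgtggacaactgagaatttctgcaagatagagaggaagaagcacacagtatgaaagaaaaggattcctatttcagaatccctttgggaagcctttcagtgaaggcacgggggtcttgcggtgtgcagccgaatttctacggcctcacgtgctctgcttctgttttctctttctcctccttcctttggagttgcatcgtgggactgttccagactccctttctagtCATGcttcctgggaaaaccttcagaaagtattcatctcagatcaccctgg
H460 only, stretch with the most pCREs (chr6:165852758-165852897): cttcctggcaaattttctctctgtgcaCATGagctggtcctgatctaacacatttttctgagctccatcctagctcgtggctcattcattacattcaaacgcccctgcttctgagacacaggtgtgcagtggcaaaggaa
H460 and A549, stretch with the most pCREs (chr6:165814245-165814435): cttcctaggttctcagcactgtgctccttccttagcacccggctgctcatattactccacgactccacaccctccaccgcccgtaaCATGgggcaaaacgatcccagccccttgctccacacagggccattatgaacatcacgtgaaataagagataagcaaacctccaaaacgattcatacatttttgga
H358 only, stretch with the most pCREs (chr6:165920604-165920901): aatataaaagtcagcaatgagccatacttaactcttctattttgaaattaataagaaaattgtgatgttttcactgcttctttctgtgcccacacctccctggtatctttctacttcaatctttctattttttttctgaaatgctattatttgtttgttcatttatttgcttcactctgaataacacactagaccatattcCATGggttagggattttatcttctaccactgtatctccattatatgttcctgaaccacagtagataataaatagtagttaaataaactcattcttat
A549 only, farthest of A549 (chr6:165715611-165715646): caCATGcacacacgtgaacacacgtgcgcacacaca
A549 only, upstream of the lncRNA, first (chr6:165753935-165753979): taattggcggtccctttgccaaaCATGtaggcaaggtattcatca
A549 only, upstream of the lncRNA, next (chr6:165753980-165754003): ttaggcctctctctgctCATGaaa
A549 only, upstream of the lncRNA, last (chr6:165754004-165754022): cacCATGaaaagcccagga
They were unlike each other in base composition. The GC content was 28.9% in the longest printed pCRE of all 3 lines and 30.9% in that of H358 only. It reached 59.8% in the printed pCRE of H460 and H358, 1 of 2 in that set, and the other had 40.3%. Regions of all NlaIII sites of the gene also vary, with a mean of 42.0% and a standard deviation of 9.58 percentage points. The 3 printed pCREs upstream of the lncRNA, of 45, 24 and 19 bp, show how closely NlaIII sites can follow each other.

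A549 held 220 of the 261 pCREs, H460 held 98 and H358 held 66. Over the whole window, 7.77% of the 9840 NlaIII sites within 1 Mb of the viewpoint and outside its innermost 5 kb were called in A549, 7.76% in H460 and 7.46% in H358, so the lists were of nearly equal size. As a share of each line's own list, the gene took 29.0% in A549 (95% Wilson interval 25.9 to 32.3%), 12.9% in H460 (10.7 to 15.5%) and 9.05% in H358 (7.18 to 11.4%). These intervals cover counting error only. Adjoining pCREs are not independent calls, because the signal had been averaged over 30 fragments, which spanned a median of 6.27 kb in the gene. 

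Of the 261 pCREs, 131 were called in A549 only, 47 in H460 and A549, 32 in all 3 lines, 22 in H358 only, 17 in H460 only, 10 in H358 and A549 and 2 in H460 and H358. In the window, 12.3% of the NlaIII sites were called in any line and 4.09% in all 3. The A549-only pCREs thus made up 50.2% of those within the gene (95% Wilson interval 44.2 to 56.2%), against 17.8% of the pCREs of the whole window. Those of all 3 lines made up 12.3% (8.82 to 16.8%), against 33.3%. Read the other way, the gene held 61.2% of the 214 A549-only pCREs of the window and 52.2% of the 90 of H460 and A549. It held 8.0% of the 400 of all 3 lines and 2.0% of the 102 of H460 and H358. By the classes used for TBXT expression, 17 pCREs were gained in H460 (6.51%, against 14.0% of the 1201 of the window), 163 were lost (62.5%, against 36.7%) and 81 were shared (31.0%, against 49.3%).

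Between pairs of lines, H460 and A549 had 79 pCREs in common, which were 80.6% of those of H460 and 35.9% of those of A549. H358 and A549 had 42 in common, 63.6% and 19.1% respectively. H460 and H358 had 34 in common, 34.7% and 51.5% respectively. Within PDE10A the list of H460, the line with TBXT, lay largely inside the list of A549. A549 held 84.3% of all pCREs of the gene. This share is no background for the 80.6%, because 131 pCREs are in its base through A549 alone. Of all NlaIII sites of the gene, 7.06% were called in A549. Adjoining pCREs are not independent calls, and the overlap was not tested. Over the whole window H460 shared 66.1% of its pCREs with H358 and 64.5% with A549, and H358 shared 62.4% of its pCREs with A549.

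The contacts occupied only the part of the gene upstream of its canonical transcript. This transcript, PDE10A-205, starts 506.0 kb from the viewpoint and encloses 336.0 kb of DNA with 1554 NlaIII sites, none of which was called in any line. The pCREs lay between 208 and 454 kb, and all 261 were in medium-cis, from 0.2 to 0.5 Mb. At the end toward TBXT, the nearest pCRE ended 27.3 kb inside the 5′ end of the gene. From there a stretch of 48.4 kb with 249 NlaIII sites, chr6:165960779-166009189, held no call in any of the lists. It includes the cluster of PDE10A start sites at the 5′ end and LINC00602, a lncRNA that starts beside them on the other strand.

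**Figure D1:**
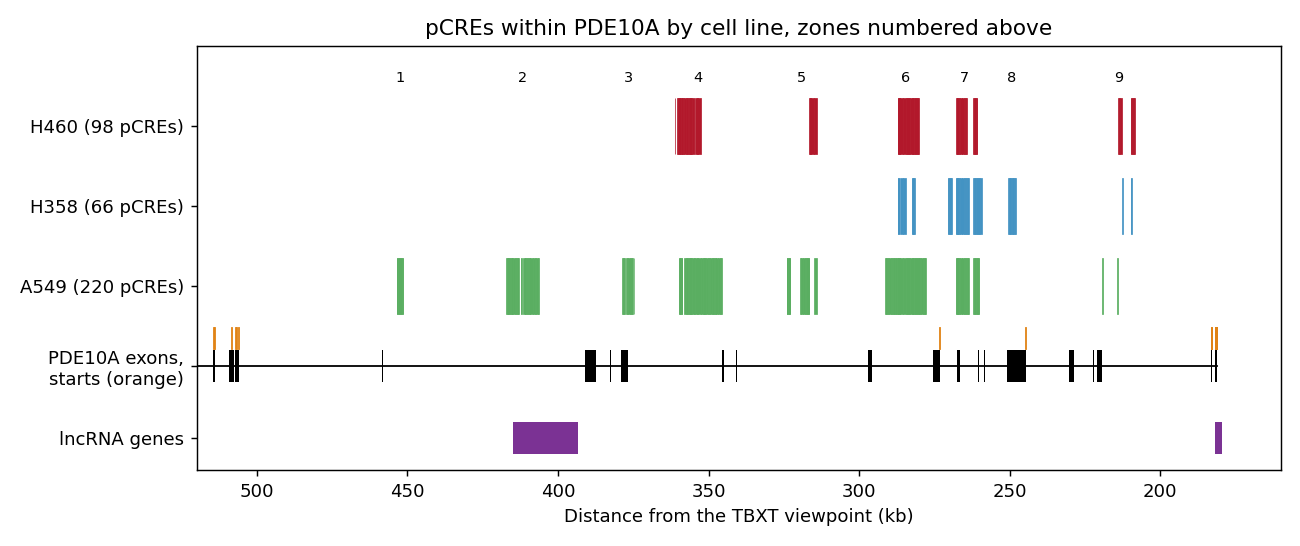
Position of the 261 pCREs within PDE10A by their distance from the TBXT viewpoint in kb, with 1 lane per cell line, the exons of all PDE10A transcripts in black, their start sites in orange and lncRNA genes in purple. Numbers mark 9 zones. A549 is called in zones 1 to 3 alone, H358 in zone 8 alone, and no line is called between zone 9 and the start sites near 181 kb.

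The share of NlaIII sites called puts the lines on a common base. Within PDE10A, with 3188 sites, the shares were 3.11% in H460, 2.13% in H358 and 7.06% in A549, with 8.38% called in any line and 1.04% in all 3. Each line was below its share of the window when the whole gene was taken. Between the farthest and the nearest pCRE, where 1187 sites lie, the shares were 8.34% in H460, 5.73% in H358 and 19.0% in A549. The ends of this span were set by the pCREs themselves, so that its shares describe the span and are no comparison with the window.

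At the distances of the gene on the other side of the viewpoint, 4.64% of 3341 sites were called in H460, 6.29% in H358 and 4.04% in A549. At the distances of the pCREs, the other side had 9.12% of its 1283 sites called in H460, 9.20% in H358 and 9.51% in A549. Over the distances of the whole gene, the lines thus spread from 4.04% to 6.29% on that side and from 2.13% to 7.06% in the gene, with A549 the lowest line on the other side and the highest in the gene. With lists of nearly equal size, more calls in the gene go with fewer elsewhere, so the sides of the viewpoint are not independent observations. With 1 list per line no test of this difference could be made.

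**Figure D2:**
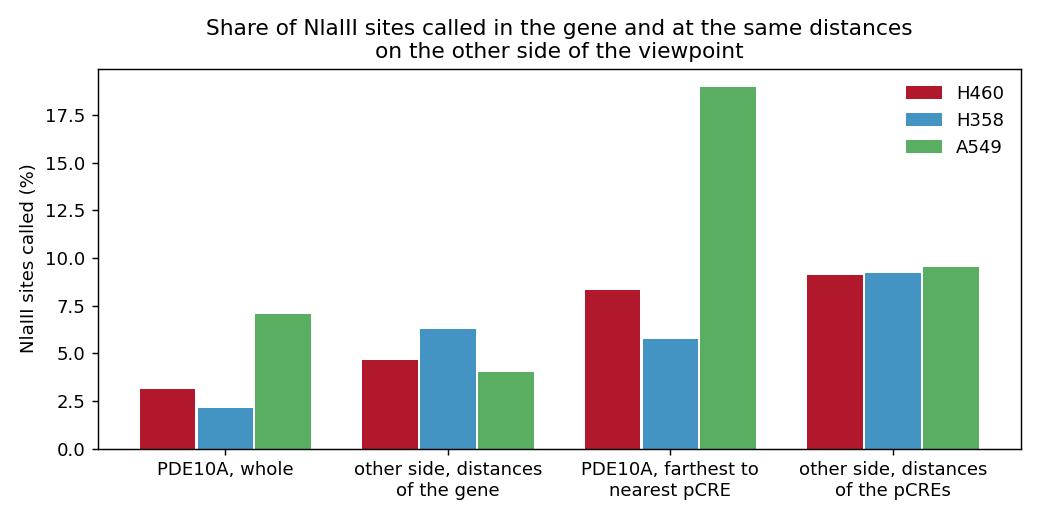
Percent of NlaIII sites called in each line, in the whole PDE10A gene, between its farthest and nearest pCRE, and at the same distances on the other side of the TBXT viewpoint. The 3 bars are near 9% on the other side at the distances of the pCREs, and A549 stands at 7.06% in the whole gene and at 19.0% between its farthest and nearest pCRE, a span whose ends the pCREs set.

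**Figure D3:**
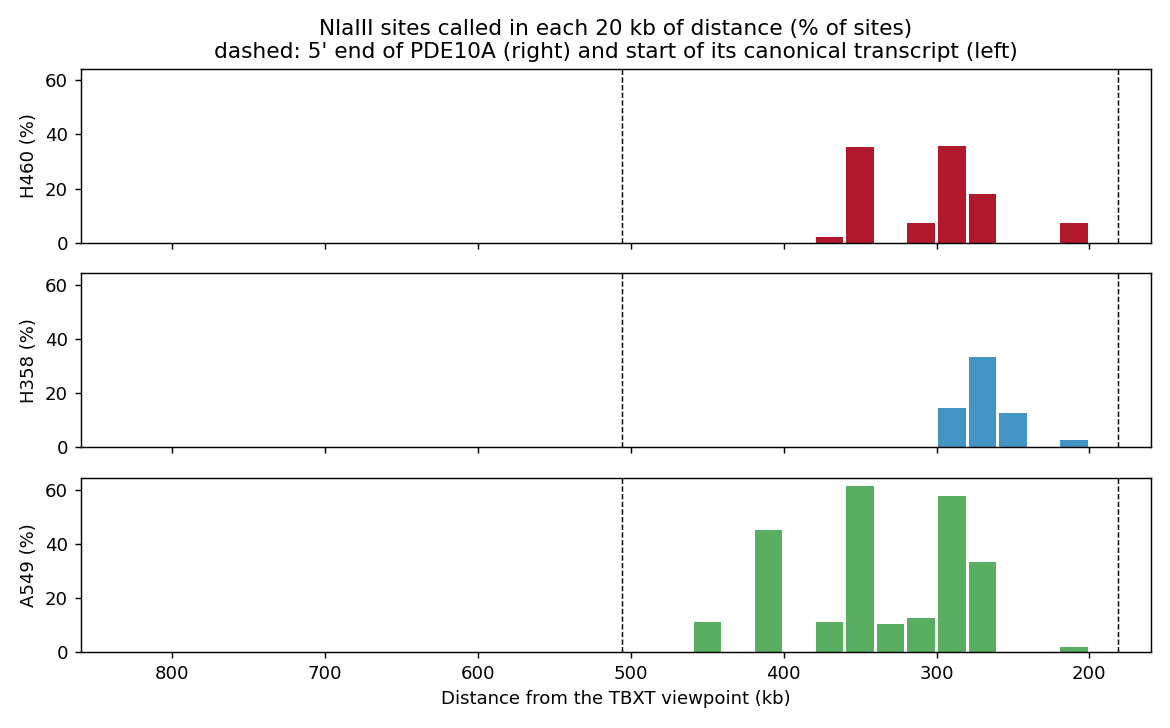
Percent of NlaIII sites called in each 20 kb of distance from the viewpoint, with 1 panel per cell line on a common scale. The highest bar is that of A549 between 340 and 360 kb, at 61.2%, and no bar stands beyond the start of the canonical transcript.

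Distance divided the lines. The median distance of the pCREs from the viewpoint was 265 kb in H358, 285 kb in H460 and 324 kb in A549. Nearer than 300 kb, a boundary chosen after the lists had been seen, there were 119 pCREs, of which H460 held 59, H358 held 66 and A549 held 89. Farther than 300 kb there were 142, of which A549 held 131, H460 held 39 and H358 held 0. Each of the 32 pCREs of all 3 lines lay on the nearer side, between 261 and 287 kb. Among those on the farther side, 103 were called in A549 only, 28 in H460 and A549 and 11 in H460 only.

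The nearest pCRE of H460 was at chr6:165960443-165960778, 209 kb away. That of H358 was at chr6:165959693-165959983 and that of A549 at chr6:165954848-165955182, at 214 kb. At the far end the order was different. The farthest pCRE of H358 was the 11 bp region at chr6:165882204-165882214, 287 kb away, which was also the farthest of all 3 lines. H460 ended at chr6:165807912-165808200, 361 kb away, and A549 at chr6:165715611-165715646, 454 kb away. A549 thus reached 92.3 kb beyond the last call of either other line.

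The study's methods merge fragments no more than 40 bp apart into pCREs. The lists nevertheless hold adjoining regions, and the study's total of 1201 counts each of them. Joined at 40 bp, the 261 pCREs formed 20 stretches, and joined at 5 kb they formed 9 zones. The zones are numbered from the far end. Zones 1 to 3 were called in A549 alone, zone 8 in H358 alone, and none in H460 alone. H460 and A549 shared zones 4 and 5, and all 3 lines were present in zones 6, 7 and 9.

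**Figure D4:**
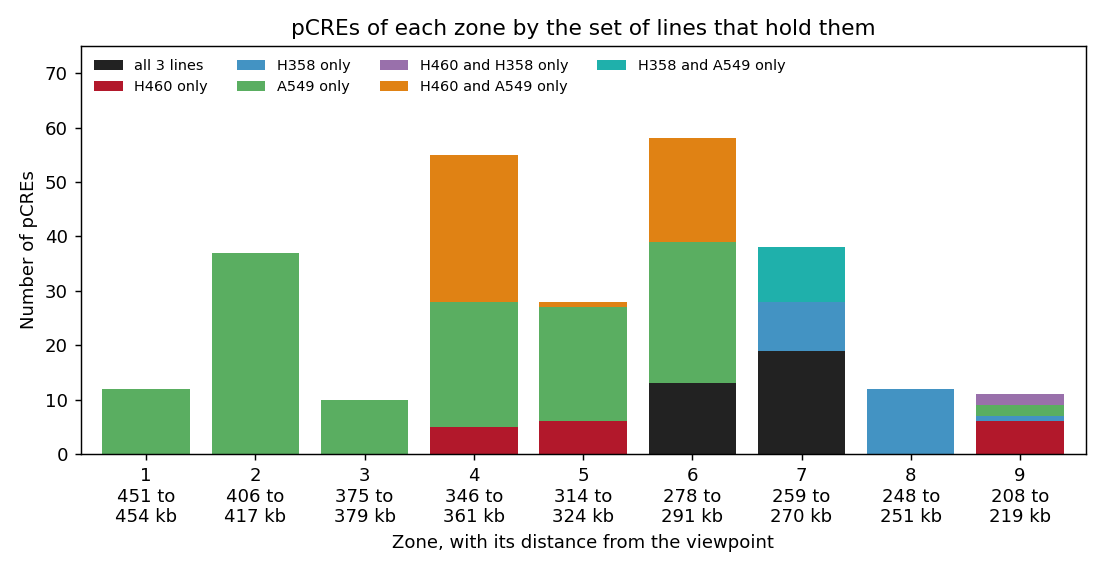
Number of pCREs in each of the 9 zones, stacked by the set of lines that hold them, with each zone's distance from the viewpoint under its number. The pCREs of all 3 lines (black) occur in zones 6 and 7, with 13 and 19 of them.

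Zone 1, at chr6:165715611-165717838, was a run of 12 pCREs over 2.23 kb in A549, with every NlaIII site in it called. Zone 2, at chr6:165751987-165762856, held 37 pCREs in 10.9 kb, also in A549 alone, with 37 of its 40 sites called. It lies across the start of ENSG00000236627, a lncRNA on the plus strand at chr6:165754189-165775780, opposite in direction to PDE10A. Of the 37 pCREs, 23 had their midpoint within this lncRNA, all in its first 8.67 kb. The 6 pCREs in the window from 1000 bp upstream to 100 bp downstream of its start included 1 that spans the start itself, at chr6:165754023-165754344. The 3 short sequences printed above stand directly before that pCRE. No other annotated transcript start in the gene had a pCRE in that window, in any line. The windows of all annotated starts thus held 2.30% of the pCREs. They held a similar share of the NlaIII sites, 2.51% in the whole gene and 2.20% upstream of its canonical start. The other lncRNA in the area, ENSG00000223942 at chr6:165773056-165775221, held no pCRE among its 12 sites.

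Zone 3, at chr6:165790477-165794485, held 10 pCREs in A549, and 11 of its 15 sites were called. Exons of PDE10A transcripts lie in it. Exons 2 and 3 of PDE10A-224, a coding transcript of 25 exons, are at chr6:165792228-165792335 and chr6:165791911-165792093, and each held the midpoint of 1 pCRE. Neither exon carries coding sequence in the annotation. The transcripts PDE10A-230, PDE10A-233 and PDE10A-239 also have exons at the same place.

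Zone 4, at chr6:165807912-165823580, was the widest, with 55 pCREs over 15.7 kb. A549 held 50 and H460 held 32, and 27 were common to these lines. H460 was called from 165807912 to 165816606 and A549 from 165809394 to 165823580. The zone of A549 was thus displaced toward the viewpoint by 6.97 kb at its near edge and by 1.48 kb at its far edge. The 22 pCREs of A549 beyond the near edge of H460 ran without a gap over 6974 bp, the stretch with the most pCREs of any single set of lines in the gene. Inside the part of the zone where both were called, H460 alone held the adjoining regions chr6:165810548-165810795 and chr6:165810796-165811202, which filled a gap in the A549 calls.

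Zone 5, at chr6:165845210-165855209, held 28 pCREs, of which A549 held 22 and H460 held 7. They shared 1, at chr6:165854135-165855209, the longest pCRE in the gene at 1075 bp and rich in GC at 68.4%. The other 6 of H460 adjoined each other over 1437 bp, the H460-only stretch with the most pCREs, and faced the end of an A549 stretch across 105 bp of uncalled DNA. H358 had no call in zones 1 to 5.

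Zone 6, at chr6:165877784-165891392, held 58 pCREs over 13.6 kb, and A549 was called in all of them without interruption. The calls were nested. H460 held 32 in the middle of the zone, from 165882204 to 165889033, and H358 held 13 in 3 pieces, which all belonged to the 32 of H460. All 59 NlaIII sites of the zone were called in A549. The far edge was the same in H460 and H358, at the 11 bp pCRE named above.

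Zone 7, at chr6:165898762-165909956, was nested in another order. H358 held all 38 pCREs, A549 held 29 of them and H460 held 19, which all belonged to the 29 of A549. The 19 include the stretch of all 3 lines with the most pCREs, 8 over 2962 bp at chr6:165902226-165905187. A549 was thus the broadest line in zone 6 and H358 in zone 7, while H358 was the narrowest in zone 6 and H460 in zone 7.

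**Figure D5:**
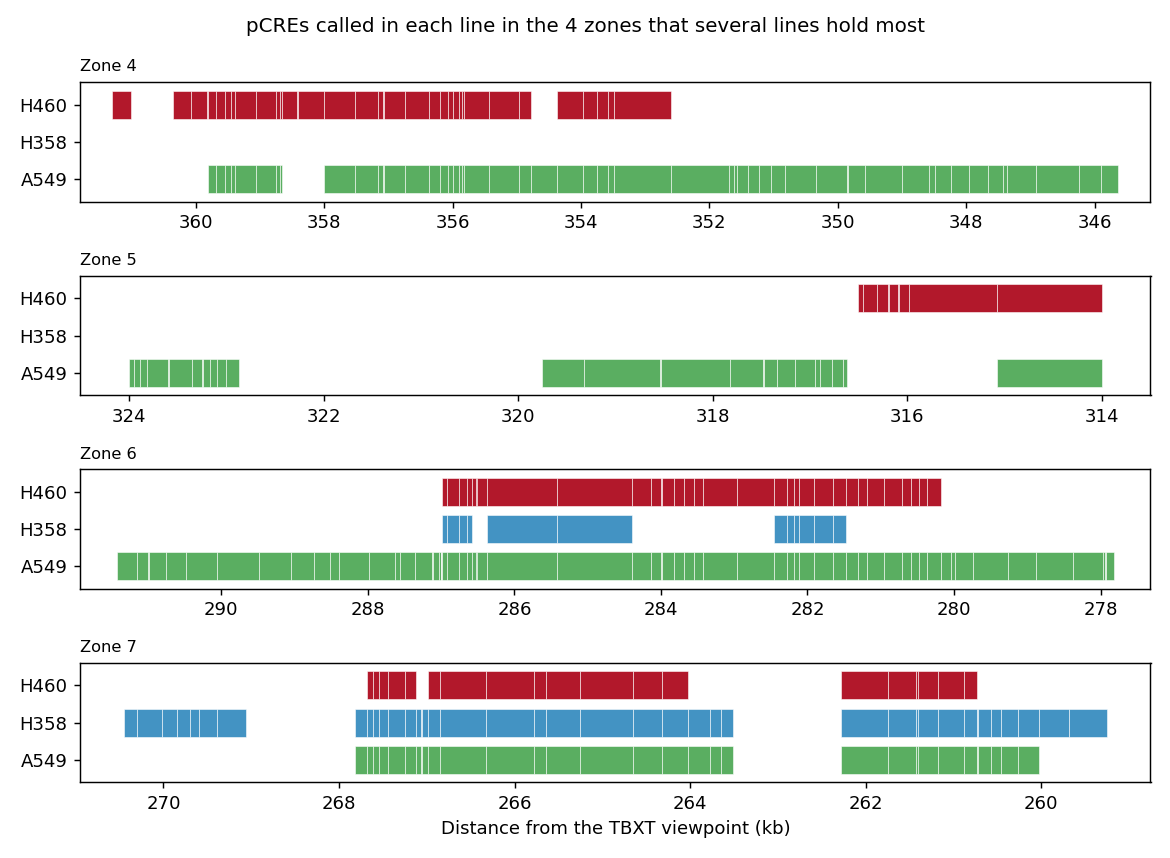
pCREs called in each line in zones 4 to 7, by distance from the TBXT viewpoint in kb, where each block is 1 pCRE and white lines part adjoining ones. In zone 6 the calls of H358 lie within those of H460 and those of H460 within those of A549, and in zone 7 the calls of H460 lie within those of A549 and those of A549 within those of H358.

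Exons of PDE10A transcripts without an annotated coding sequence fall in zones 7 and 8. An exon of PDE10A-218 at chr6:165901820-165902912, which overlaps exons of PDE10A-236 and PDE10A-237, was touched by 7 pCREs, of which H358 and A549 held 7 and H460 held 5. An exon of PDE10A-202 at chr6:165908802-165909080 held 2 pCREs, both in H358 and A549 and neither in H460. Zone 8, at chr6:165918631-165921249, was called in H358 alone. Its 12 pCREs, which spanned 2619 bp, all lay within the 6449 bp exon of PDE10A-240 at chr6:165918211-165924659.

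Zone 9, at chr6:165950008-165960778, was the nearest to TBXT and the most scattered, with 11 of its 49 sites called. H460 held 8 of the 11 pCREs, H358 held 3 and A549 held 2. No pCRE was common to all 3 lines and none to A549 and another line, although the lines alternated along adjoining regions. A549 held chr6:165954848-165955182, H460 the next 3 regions up to 165956621, and H358 the region after them, chr6:165956622-165956740. The 2 pCREs of H460 and H358, one of which is printed above, are at chr6:165959467-165959983. In RefSeq (GRCh38.p14), zone 9 belongs to LINC00473, a lncRNA of 64.0 kb at chr6:165924048-165988039 that is known to be induced by cAMP signaling. All 11 pCREs of the zone, of 345 NlaIII sites, were the contacts of that lncRNA. GENCODE counts its transcripts to PDE10A.

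The gained pCREs lay beside contacts of the other lines. Each of the 17 H460-only pCREs lay at most 1.19 kb from a pCRE of H358 or A549, with a median gap of 165 bp, and 7 adjoined one directly. The H358-only pCREs had a median gap of 9.69 kb to the nearest call of another line, and 12 of the 22, those of zone 8, were over 5 kb away. The A549-only pCREs had a median gap of 6.70 kb, and 74 of the 131 were over 5 kb away, all those of zones 1 to 3 among them. These gaps do not rank the lines. A549, which held 220 of the 261 pCREs, was among the other lines for H460 and H358 but not for itself. Adjoining pCREs are also not independent calls. The gaps of the H460-only pCREs were shorter than the 6.27 kb over which the signal had been averaged.

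PDE10A has 40 annotated transcripts in GENCODE 44, of which 26 start upstream of the canonical start. Of these, 24 start within 2 kb of the 5′ end of the gene, and for them the nearest pCRE of H460 lay 25.7 to 27.3 kb away, that of H358 26.5 to 28.1 kb and that of A549 31.3 to 32.9 kb. The other 2 start inside the contacted part. PDE10A-223 starts at 165896237, in the gap between zones 6 and 7, with the nearest pCRE 2.52 kb away in H358, 4.84 kb in A549 and 5.29 kb in H460. PDE10A-218 starts at 165924592, with the nearest pCRE 3.34 kb away in H358, 15.4 kb in A549 and 16.1 kb in H460. No pCRE had its midpoint in the window from 1000 bp upstream to 100 bp downstream of any of the 26 starts. Such windows of all annotated starts held only 36 of the 1634 NlaIII sites upstream of the canonical start.

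In the longer coding transcripts, all 261 pCREs lay in intron 1, which measures 444 kb in PDE10A-201, 443 kb in PDE10A-226, 276 kb in PDE10A-225 and 275 kb in PDE10A-211. In PDE10A-224 they were split, with 207 in intron 1, 52 in intron 3 and 1 in each of exons 2 and 3. An annotation that starts the gene at its canonical transcript leaves the same pCREs outside PDE10A, at 52.4 kb or more upstream of that start. Counting the exons of every transcript, 25 pCREs (9.58%) had their midpoint in an exon, beside 5.58% of all NlaIII sites of the gene and 7.47% of the 1634 sites upstream of the canonical start, where all pCREs lay. No pCRE had its midpoint in coding sequence, which held 0.439% of the sites of the gene and 1 of those 1634. H358 held 20 of the 25, A549 13 and H460 4. The 12 pCREs of zone 8, in a single exon, made up most of the count of H358. The lncRNA genes of GENCODE, which do not include LINC00473, held 23 pCREs (8.81%), all of A549, beside 2.48% of the sites of the gene and 4.83% of those upstream of the canonical start. This comparison depends on the annotation. In RefSeq, LINC00473 held 11 pCREs and 345 of those 1634 upstream sites, and no lncRNA is listed at zone 2.

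The regions around called sites differed in their restriction pattern. The median length of a site's region was 198 bp for the 267 called sites and 159 bp for the 920 sites between the farthest and the nearest pCRE that were not called. Neither of the adjoining NlaIII fragments held a DpnII site, GATC, at 36.7% of the called and 48.6% of the other sites, and both did at 16.1% and 10.2%. The GC content of the called regions was 44.1% and that of the others 43.0%. By line, sites without DpnII made up 33.3% in H460, 36.8% in H358 and 37.8% in A549. The pattern was not particular to the gene. Called sites outside it had a median region of 189 bp, against 158 bp for the uncalled sites within 1 Mb. Neither fragment held a DpnII site at 38.2% and 48.3% of these, respectively, and both did at 13.0% and 10.3%. Fragments with one enzyme's site at either end, and those under 40 bp, had been left out by the authors before the calls. The part of this in the position of the edges was not tested.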

How the data were processed

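4C-seq libraries from 2 biological replicates were made of each of H460, H358 and A549. The authors trimmed reads to 30 bp, aligned them with Bowtie 1.2.2 to a map of hg38 cut with both enzymes, left out fragments under 40 bp or within 5 kb of the viewpoint, averaged over 30 fragments and called fragments within 1 Mb by monotonic regression in peakC, keeping those found in both replicates. The deposited values used here are other than counts: the authors' lists give start and end positions in bp for each line. Read counts and scores were not analysed here, so the depth behind a call was not known.

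Header lines were dropped (1 in the A549 and 1 in the H358 list) and starts were made 1-based. The viewpoint was placed by matching the forward primer to hg38, and every boundary of the 261 pCREs lay within 1 bp of the middle of an NlaIII fragment of hg38. pCREs were matched on identical start and end. Annotation was GENCODE 44 and RefSeq GRCh38.p14. A site counted as called where a pCRE held it. Regions were named by rule: the nearest and farthest pCRE of each line and of all 3, the stretch with the most pCREs of each set of lines, and pCREs at transcript starts. Others that stand out were chosen from their values. The pCREs, the motifs and the lists of features were chosen with earlier results of these data known. With 1 list per line no test was possible, and the printed intervals are Wilson intervals at 95%. Alternatives to the median distances were judged by an approximate 95% interval taken from the ordered values. The matching and joining steps were tested on simulated data. Python 3.11.15 and matplotlib 3.10.9 were used. Read profiles, ChIP-seq and expression were not analysed here.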

Additional observations from a re-analysis of the deposited data

How the results depend on the processing

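No paired analysis was possible because each list pools both replicates of a line, and leaving out a replicate was not possible for the same reason. Of 69 alternative values for 23 results, 56 stayed within the 95% interval of the value reported or, for counts, within 1.5 times of it. These intervals take adjoining pCREs as independent, which they are not. Joining regions within 40 bp turned the 261 pCREs into 20 stretches, of which H358 touched 35.0%. When a pCRE counted as held by a line with a call within 1 kb, the share of all 3 lines was 26.8%, that of A549 only 40.6%, that of H460 only 0.383% and that of H358 and A549 0.383%. With overlapping or adjoining calls counted as held, H460 only had 3.83%. From the farthest pCRE to the 5′ end of the gene, 7.44% of sites were called in H460, 5.11% in H358 and 16.9% in A549. Joining at 5 kb, chosen after the data had been seen, left 5 zones in H460, 4 in H358 and 8 in A549. In each of these alternatives A549 held the largest share of sites, stretches and zones. The unknown depth and the single list per line limit every comparison: a pCRE missing from a list cannot be told apart from one that fell just short in 1 replicate.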

Other observations

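The letters of 5 motifs, searched on both strands with overlaps kept, were counted in the 261 pCREs and, for the background, in the regions of all 3188 NlaIII sites of the gene. The T-box motif AGGTGTGA, bound by brachyury and its relatives, was in 4 pCREs (1.53%) and in 1.22% of the site regions. The 4 were chr6:165906926-165907462 and chr6:165882840-165883790, both called in all 3 lines, chr6:165810796-165811202, called in H460 only, and chr6:165821852-165822295, called in A549 only. The forkhead motif TGTTTAC was in 1.92% of pCREs and 3.51% of site regions. The AP-1 motif TGANTCA was in 5.75% and 6.27%. Of the study's motifs, ATACACA was in 4.21% and 6.05% and TCATCA in 15.7% and 13.5%. Per kb of sequence, which allows for the longer pCREs, the T-box motif had 0.0610 matches in pCREs and 0.0618 in site regions, forkhead had 0.0762 and 0.170, AP-1 had 0.244 and 0.329 and ATACACA had 0.229 and 0.362. TCATCA, in a larger share of pCREs than of site regions, had fewer matches per kb in pCREs, 0.732 against 0.774. A match is a run of letters and not a bound site.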
